A study of Mus musculus with 6 samples.

Results

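The genes described here encode the receptors through which osteoclast precursors receive RANKL, M-CSF and calcitonin, together with receptors for TNF, IL-1, GM-CSF and G-CSF and with Lgr4, a further receptor reported to bind RANKL. The 10 genes, Tnfrsf11a, Csf1r, Calcr, Tnfrsf1a, Tnfrsf1b, Il1r1, Csf2ra, Csf2rb, Csf3r and Lgr4, were chosen by symbol from the 24940 genes of the expression table, and each symbol matched 1 row. Messenger RNA was measured in mouse bone marrow-derived macrophages (BMMs) grown as osteoclast precursors in 3 groups, with 2 libraries each. Cells of the -R group received M-CSF (30 ng/mL) alone for 3 days. Cells of the +R group received the same M-CSF and RANKL (100 ng/mL), and cells of the R+LE group received both factors and LE, a leaf extract of the shrub Abeliophyllum distichum (10 μg/mL). M-CSF was therefore present in every group, and no group received LE without RANKL. The labels give C57BL/6 donors of 6 to 8 weeks, with no genetic alteration named, and 48-well plates, whereas the methods of the study name ICR mice and 6-well plates for sequencing, so the strain is given here only as the labels state it. Neither source says whether the 2 libraries of a group came from separate mice or cultures, so the p-values below measure only the spread between these libraries, which may be technical.

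RANK, the product of Tnfrsf11a, is a member of the TNF receptor family that recruits TRAF adaptors and starts the NF-κB, MAP kinase and NFATc1 signals of osteoclast formation. The M-CSF receptor, encoded by Csf1r, is a tyrosine kinase that keeps cells of the macrophage lineage alive and dividing. The calcitonin receptor, encoded by Calcr, is a G protein-coupled receptor that appears late in osteoclast formation and lets calcitonin stop resorption. The receptors for TNF and IL-1 carry inflammatory signals that act with RANKL, while those for GM-CSF and G-CSF belong to myeloid growth and to granulocytes.

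RefSeq promoter windows matched 8 of the 10 genes by symbol. The 250 bases before the start site are shown for 4 of them, Tnfrsf11a, whose level was high in every group, Calcr, which had reads only with RANKL, and Tnfrsf1b and Csf3r, the members with the largest falls. They are RefSeq sequences of GRCm38.p6, written 5′ to 3′ on the strand of the gene, and capitals mark every match, on either strand, to TGANTCA (the AP-1 site), GGAAA (the NFAT core), CANGTG (the E-box bound by MITF) or GAGGAA (the core of the PU-box).
Tnfrsf11a, chr1:105780473-105780722, plus strand: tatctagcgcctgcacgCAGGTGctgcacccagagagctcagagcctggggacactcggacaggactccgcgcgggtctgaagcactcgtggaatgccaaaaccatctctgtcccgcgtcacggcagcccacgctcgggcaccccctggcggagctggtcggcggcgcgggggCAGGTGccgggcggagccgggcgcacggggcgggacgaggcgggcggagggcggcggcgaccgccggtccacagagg
Calcr, chr6:3763624-3763873, minus strand: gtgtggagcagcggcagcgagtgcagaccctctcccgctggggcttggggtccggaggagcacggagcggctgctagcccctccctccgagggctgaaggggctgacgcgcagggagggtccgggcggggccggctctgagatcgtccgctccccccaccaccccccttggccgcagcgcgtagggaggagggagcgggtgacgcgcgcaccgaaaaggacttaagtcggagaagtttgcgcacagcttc
Tnfrsf1b, chr4:145246871-145247120, minus strand: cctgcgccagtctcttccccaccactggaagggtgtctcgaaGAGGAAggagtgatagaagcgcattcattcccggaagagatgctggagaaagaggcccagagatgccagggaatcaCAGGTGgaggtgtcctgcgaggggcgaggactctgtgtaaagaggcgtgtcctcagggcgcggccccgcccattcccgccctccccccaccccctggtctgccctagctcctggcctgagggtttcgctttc
Csf3r, chr4:126024409-126024658, plus strand: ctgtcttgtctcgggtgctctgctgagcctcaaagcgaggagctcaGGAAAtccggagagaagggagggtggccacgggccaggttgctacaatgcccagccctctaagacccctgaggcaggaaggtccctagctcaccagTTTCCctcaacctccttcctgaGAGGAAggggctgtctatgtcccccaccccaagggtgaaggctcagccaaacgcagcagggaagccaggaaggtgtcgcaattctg
The window of Tnfrsf11a held 2 E-box matches and the window of Calcr shown held none of the 4 motifs, while Tnfrsf1b had 1 E-box and 1 PU-box core, and Csf3r had 2 NFAT cores and 1 PU-box core. Over 32851 RefSeq promoter windows of the same length, 6.75% held the AP-1 site, 55.6% the NFAT core, 39.5% the E-box and 23.3% the PU-box core, so that each of these motifs except AP-1 is common and a match is only a description. The windows of Tnfrsf11a and Calcr were rich in G and C, with 73.6% and 70.8% GC and 31 and 24 CpG dinucleotides, against medians of 52.4% and 6 over all windows. Calcr has another RefSeq start site, which the expression table does not use, and the window before it held 1 NFAT core and 1 E-box match, with 46% GC and 2 CpG dinucleotides.

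Levels are in RPKM, which scales reads to the length of the transcript and to the mapped reads of the library, so that genes can be compared with one another. The 6 libraries held 29390212 to 34846374 mapped reads, of which 74.2% to 80.7% lay on genes. The ribosomal precursor Rn45s took 4.97% and 6.83% of the gene reads in -R and 10.9% to 13.5% in the other 4 libraries, and leaving it out of the depth changed no call of a member. The labelled cell type was checked with listed marker genes. All 10 macrophage and monocyte markers had reads in every library. Ly6c2 had only 2 and 4 reads in +R and 8 and 4 in R+LE, against 900 and 1176 in -R. The 10 had summed levels of 6495 to 7102 RPKM in -R, 2522 to 3267 in +R and 3642 to 4038 in R+LE. Lyz2 made up most of each sum, and not all markers moved with it. The mean of Itgam was 70.5 RPKM in -R and 90.2 in +R, and that of Cd68 was 445 RPKM in +R and 336 in R+LE. The 10 osteoclast markers summed to 49.0 to 50.6 RPKM in -R, 1998 to 2267 in +R and 366 to 421 in R+LE. In bulk RNA of this kind, fewer cells of a type and less RNA per cell cannot be told apart.

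The question of the first comparison is what RANKL did to its own receptor and to the others. Calcr went from no read to a mid-range transcript, Tnfrsf1b and Csf3r fell most, Csf1r, Tnfrsf1a and Csf2ra fell by less than 2-fold, and for Tnfrsf11a and Csf2rb no difference was resolved. Of the 10 receptor genes, 8 passed the filter of a mean of 0.5 RPKM over the 6 libraries and were tested among 11595 genes with limma on log2(RPKM + 0.5). Unless a voom fit is named, log2 fold changes are on that scale, which understates the change of low genes. In what follows a gene rose or fell if its adjusted p was below 0.05, and it was called if the change was also at least 2-fold. In +R against -R, 1 of the 8 was called higher, where 6.58% of all tested genes were, and 2 were called lower, where 8.92% were. By adjusted p alone, 1 rose and 5 fell, beside 23.9% and 21.5% of all tested genes. The median log2 fold change of the 8 was -0.69, also with Calcr at its bound, against 0.05 over all tested genes. Calcr passed the filter through the groups with RANKL and Csf3r through -R, so these counts describe the genes that could be tested and are no support for a direction of the group.

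The comparison of R+LE with +R asks how LE changed the receptors under RANKL. It shares the +R libraries with the first comparison, so the values of both are given side by side for each gene and not related to one another. With LE, Calcr was lower, Tnfrsf1b was higher, and no other tested member passed the threshold. Of the 8 genes, 0 were called higher and 1 lower by limma, where 1.46% and 1.78% of all tested genes were, and by adjusted p alone 1 rose and 1 fell, beside 5.19% and 6.86%. At an unadjusted p below 0.05, 2 were higher and 1 lower, and limma voom on recovered reads also called 0 higher and 1 lower. The median log2 fold change of the 8 was 0.04, against -0.05 over all tested genes. For R+LE against -R, 1 was called higher and 2 lower, where 3.92% and 6.36% of all tested genes were. By adjusted p alone 1 rose and 4 fell there, beside 15.3% and 19.0%, and the medians were -0.43 for the 8 and -0.01 for all tested genes.

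**Figure D1:**
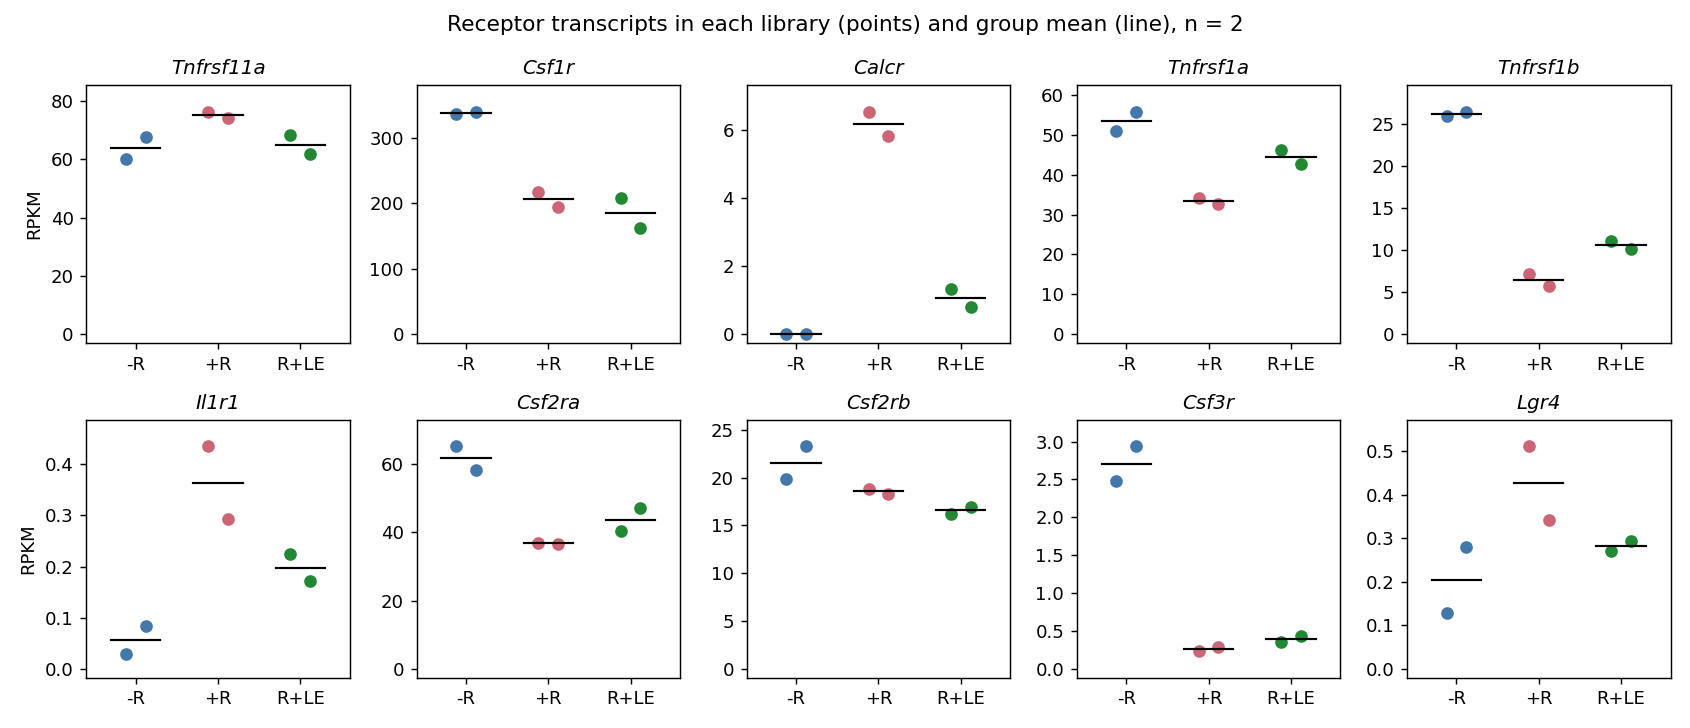
Each panel plots the RPKM of 1 receptor gene on a linear axis from 0, with a point for each library and a line at the mean of the 2 libraries of a group. Calcr is at 0 in both -R libraries and highest in +R, Tnfrsf1b and Csf3r are highest in -R, and Tnfrsf11a stays between 60.1 and 76.4 RPKM in all 6 libraries.

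Tnfrsf11a, the RANK gene, is a protein-coding gene at chr1:105780723-105847981 on the plus strand (mm10), and the RefSeq transcript counted has 10 exons. With M-CSF alone its level was 60.1 and 67.8 RPKM. The +R libraries had 76.4 and 74.1 RPKM, and those with LE had 68.4 and 61.8 RPKM. Both +R libraries lay above the other 4, and the ranges of -R and R+LE overlapped. Means were 63.9 ± 5.44 RPKM for -R, 75.2 ± 1.67 for +R and 65.1 ± 4.68 for R+LE, with the SD of 2 libraries. The log2 fold change was 0.24 in +R against -R, with a 95% interval from -0.08 to 0.55 and an adjusted p of 0.203 by limma. Quantile normalization gave 0.25 with an adjusted p of 0.0438, and over all alternatives this p ran from 0.0438 to 0.600. The difference of R+LE from +R was -0.21, from -0.52 to 0.10, with an adjusted p of 0.452. That of R+LE from -R was 0.03, from -0.28 to 0.34, with an adjusted p of 0.910. The intervals of the RANK transcript reach up to 0.55 on the log2 scale and lie within a 2-fold change in each of the 3 comparisons.

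Csf1r, the M-CSF receptor gene, lies at chr18:61105572-61131139 on the plus strand, and its counted transcript has 22 exons. It was the most abundant receptor in every library, with 337 and 340 RPKM under M-CSF alone, 217 and 195 RPKM under RANKL, and 208 and 163 RPKM under RANKL and LE. Both -R libraries stood above the other 4, and the ranges of +R and R+LE overlapped. Csf1r fell with RANKL by 0.72 on the log2 scale (SE 0.17), with an adjusted p of 0.00310 by limma, which became 0.0504 without replicate 1 and 0.0511 without replicate 2 of -R. The difference of R+LE from +R was -0.16, with an interval from -0.53 to 0.20 and an adjusted p of 0.664, and it was 0.015 without replicate 2 of R+LE. Against -R, Csf1r in R+LE fell by 0.88 on the log2 scale, with an adjusted p of 0.000961. Without replicate 1 of R+LE, the higher of that pair, the last difference was -1.06 and passed the 2-fold threshold. Of the 10 macrophage and monocyte markers, 6 were called lower and 0 higher with RANKL, beside 8.92% and 6.58% of all tested genes, and their part in the fall of Csf1r was not tested.

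Calcr, the calcitonin receptor gene, lies at chr6:3685720-3763623 on the minus strand, and its counted transcript has 15 exons. No read lay on it in either -R library, against 694 and 617 reads with RANKL and 145 and 84 reads when LE was added. In RPKM, -R was at 0 in both libraries, +R at 6.55 and 5.82, and R+LE at 1.33 and 0.799, so that the 3 groups did not overlap. The limit for a count of 0 was taken as 3 reads in each -R library, a mean of 0.0272 RPKM. Against that limit the level in +R was at least 227-fold higher than in -R, and the level in R+LE at least 39.1-fold higher. The fitted log2 fold changes of 3.74 (SE 0.21) and 1.62 (SE 0.21) rest on the pseudocount and are no bounds, and their adjusted p were 1.15e-09 and 1.77e-05 by limma.

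With LE the calcitonin receptor transcript was left at 21.5% and 12.9% of the mean of +R in the 2 libraries. The log2 fold change of R+LE against +R was -2.11 (SE 0.21), with an adjusted p of 6.95e-06 by limma, and the same contrast by limma voom on recovered reads gave -2.57. As a ratio of reads per mapped read it was 0.173, with a 95% counting interval from 0.1496 to 0.1992. The 10 osteoclast markers, among them the resorption enzymes Acp5, Ctsk, Mmp9 and Car2, moved with Calcr in every comparison: all 10 were called higher with RANKL, where 6.58% of all tested genes were, and all 10 called lower with LE, where 1.78% were, and their levels in R+LE were 13.4% to 39.8% of +R. Ctsk, Car2, Oscar, Ocstamp and Itgb3 passed the filter through the groups with RANKL, so the count called higher with RANKL is no support for a direction. The part of osteoclast number in the levels of Calcr was not tested. Calcr lay among the 10 osteoclast markers, between Mmp9 at 14.8% and Acp5 at 18.9%, whereas the other 7 tested receptors had 86.5% to 166% of their +R level.

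**Figure D2:**
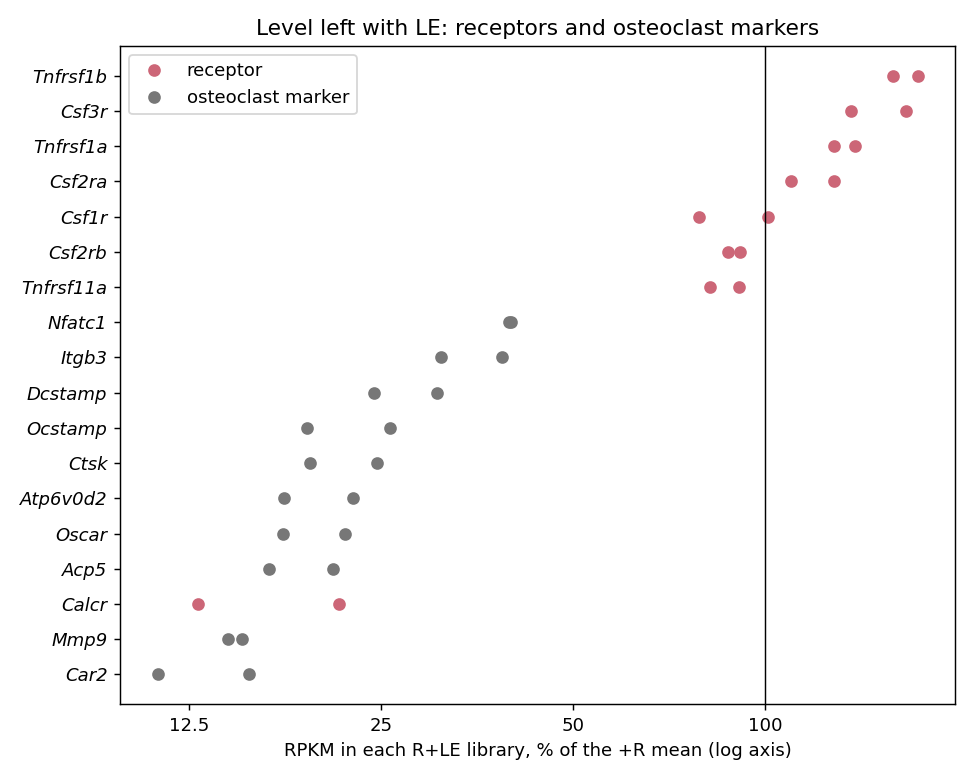
The plot gives the level of each gene in the 2 R+LE libraries as a percentage of its mean in +R, on a log axis, for the 8 tested receptors and the 10 osteoclast markers, in order of the mean. Calcr, at 12.9% and 21.5%, lies among the osteoclast markers, and the other 7 receptors have means of 86.5% to 166%, with both libraries of Tnfrsf1b, Csf3r, Tnfrsf1a and Csf2ra above the line at 100%.

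TNF acts through a pair of receptors. Tnfrsf1a encodes TNFR1, which carries a death domain, and lies at chr6:125349723-125362483 on the plus strand. Tnfrsf1b encodes TNFR2, which has none and binds TRAF2, and lies at chr4:145212368-145246870 on the minus strand. In the -R libraries Tnfrsf1a was at 51.0 and 55.9 RPKM, with RANKL at 34.2 and 32.7 RPKM, and with RANKL and LE at 46.3 and 42.8 RPKM. The 3 groups did not overlap, with R+LE between the other two. Tnfrsf1a fell with RANKL by 0.67 on the log2 scale (SE 0.14), with an adjusted p of 0.00115. The difference in R+LE against +R was 0.41, with an interval from 0.11 to 0.71 and an adjusted p of 0.0751 by limma. That p depends on the method: over the alternatives it ran from 0.0100 with quantile normalization to 0.362, and it was 0.0469 with the replicate number as a block. Between R+LE and -R the difference was -0.26, with an adjusted p of 0.170.

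Tnfrsf1b was called lower in both comparisons with -R. Its level was 25.9 and 26.4 RPKM without RANKL, 7.08 and 5.68 RPKM with it, and 11.1 and 10.1 RPKM with LE as well. Again no groups overlapped and R+LE lay between -R and +R. With RANKL it fell by 1.96 on the log2 scale (SE 0.14), with an adjusted p of 2.99e-08 by limma. With LE it rose from its level in +R by 0.70 (SE 0.14), with an adjusted p of 0.00425, short of 2-fold. That p was 0.0703 without replicate 2 of +R, the lower of that pair, and 0.0544 without the filter on low values. Against -R it was still called lower in R+LE, by a log2 fold change of -1.27 and an adjusted p of 5.85e-06. In +R the range of Tnfrsf1b overlapped that of Calcr, while in -R it stood above that of Csf2rb.

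Il1r1, the signalling receptor for IL-1 at chr1:40266586-40316177 on the plus strand, was near the limit of detection and did not pass the filter. The -R libraries had 4 and 14 reads (0.028 and 0.084 RPKM), the +R libraries 64 and 43 (0.435 and 0.292 RPKM), and the R+LE libraries 34 and 25 (0.225 and 0.171 RPKM). The 3 groups did not overlap, with +R highest. The ratio of reads per mapped read was 6.22 in +R against -R, with a 95% counting interval from 3.75 to 10.9, and 0.546 in R+LE against +R, from 0.390 to 0.757. These intervals cover counting error only. A limma voom fit on recovered reads of all genes with at least 10 reads, added after the data were seen, gave log2 fold changes of 2.73 (adjusted p = 9.05e-05) and -0.85 (adjusted p = 0.208) for these comparisons, and 1.88 (adjusted p = 0.0160) for R+LE against -R. Without a filter, the fit on RPKM gave 0.63 and an adjusted p of 0.0107 for +R against -R. The 8 markers of stromal cells and osteoblasts, which also express Il1r1, summed to 16.9 to 18.0 RPKM in -R, 11.6 to 15.8 in +R and 9.10 to 10.5 in R+LE, and their part in the level of Il1r1 was not tested.

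**Figure D3:**
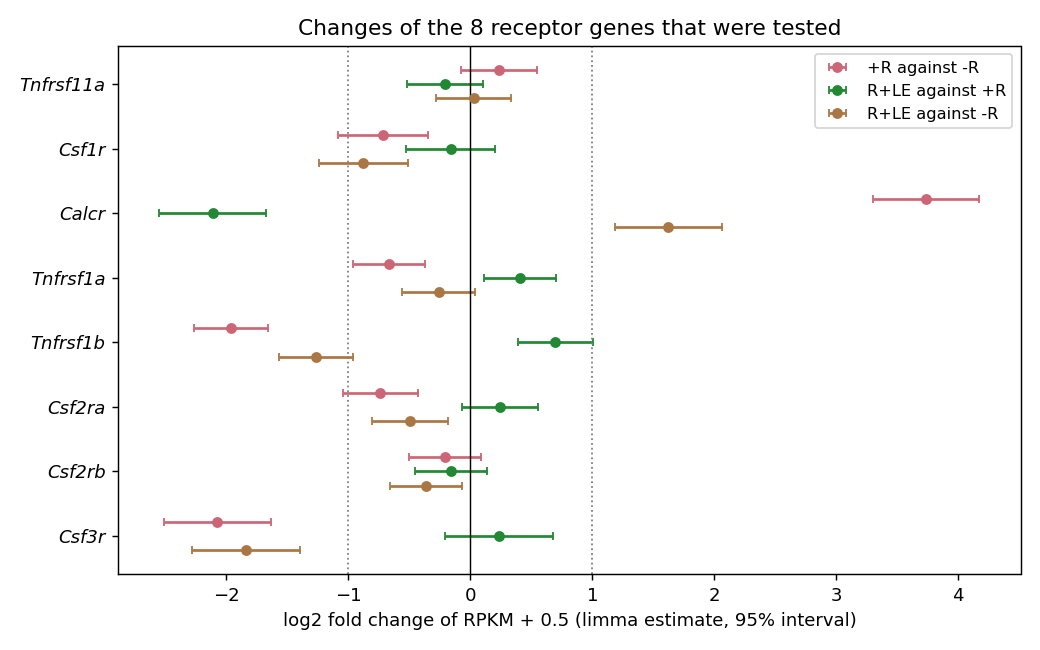
The plot shows the limma log2 fold change of RPKM + 0.5 with its 95% interval for the 8 tested receptor genes in 3 comparisons, and dotted lines mark 2-fold changes. The intervals of Tnfrsf11a and Csf2rb lie within the dotted lines in each comparison, and Calcr has the largest positive change with RANKL and the largest negative change with LE.

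The receptor for GM-CSF joins an α chain, encoded by Csf2ra at chr19:61224402-61228418 on the minus strand, to a β chain, encoded by Csf2rb at chr15:78325990-78351001 on the plus strand and shared with the receptors for IL-3 and IL-5. Csf2ra was at 65.2 and 58.3 RPKM with M-CSF alone, 36.9 and 36.6 RPKM with RANKL, and 40.3 and 47.1 RPKM with RANKL and LE. The -R libraries were highest and the groups did not overlap. Csf2ra fell with RANKL by 0.74 on the log2 scale (SE 0.14), with an adjusted p of 0.000686 by limma, and in R+LE against +R the difference was 0.24, from -0.07 to 0.55, with an adjusted p of 0.358. Relative to -R it fell in R+LE by 0.50, with an adjusted p of 0.0155 that rose to 0.160 without replicate 1 of -R, 0.0564 without replicate 2 of -R and 0.0524 without replicate 1 of R+LE.

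For the β chain no difference passed the test. Its level was 19.9 and 23.3 RPKM with M-CSF alone, 18.8 and 18.3 RPKM with RANKL, and 16.2 and 17.0 RPKM with RANKL and LE. The groups were in the order -R, +R, R+LE without overlap. The log2 fold change was -0.21 in +R against -R (adjusted p = 0.236), -0.16 in R+LE against +R (adjusted p = 0.584) and -0.37 in R+LE against -R (adjusted p = 0.0539 by limma, from 0.0384 to 0.312 over the alternatives). Its paralog Csf2rb2, a β chain of the mouse used for IL-3, had 13.9 and 15.3 RPKM without RANKL, 6.18 and 6.47 RPKM with RANKL, and 5.91 and 5.97 RPKM with LE added, and was called lower with RANKL, by a log2 fold change of -1.14 and an adjusted p of 5.38e-06. Of the 100-base stretches of the Csf2rb transcript, 7.16% also occur in other genes, mainly Csf2rb2, and of those of Csf2rb2 9.34%, so a part of their reads is uncertain between them. One exon of Csf2rb also holds Mir7676-2 on the same strand, whose reads cannot be told apart from its own.

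Csf3r, the G-CSF receptor gene at chr4:126024659-126044975 on the plus strand, is best known from neutrophils and their precursors. It had 2.48 and 2.94 RPKM with M-CSF alone, 0.237 and 0.283 RPKM with RANKL, and 0.355 and 0.433 RPKM with RANKL and LE. The -R libraries stood far above the other 4, which rest on 26 to 47 reads each. Csf3r fell with RANKL by 2.08 on the log2 scale (SE 0.21), with an adjusted p of 9.11e-07 by limma, and the ratio of reads per mapped read was 0.0954, from 0.0714 to 0.125. Between R+LE and +R the difference was 0.23, from -0.21 to 0.67, with an adjusted p of 0.584, and in R+LE against -R Csf3r fell by 1.84, with an adjusted p of 5.32e-06. The summed level of the 10 neutrophil markers was 20.1 to 20.8 RPKM in -R, 1.06 to 1.17 in +R and 2.37 to 4.93 in R+LE, and 6 of the 10, among them S100a9 and Ly6g, had no read in +R. Elane differed, with no read in -R and R+LE and 2 and 4 reads in +R. In R+LE, 5 of the 10 had no read, and Mmp8 and S100a8 made up most of the sum, S100a8 with 2.46 and 0.509 RPKM. Of the markers, 3 were tested, and all 3 were called lower with RANKL, where 8.92% of all tested genes were. S100a9 had no read outside -R and passed the filter through that group, so this count is no support for a direction. With LE, 1 of the 3 was called higher, where 1.46% were: Mmp8, a neutrophil collagenase, which had 2.24 and 3.64 RPKM with M-CSF alone, 0.454 and 0.240 RPKM with RANKL, and 2.40 and 1.78 RPKM with RANKL and LE. The part of such cells in the fall of Csf3r was not tested.

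Lgr4, a receptor for R-spondins that has also been described as a receptor for RANKL, lies at chr2:109917647-110014257 on the plus strand and did not pass the filter. The -R libraries had 19 and 49 reads (0.128 and 0.279 RPKM), the +R libraries 79 and 53 (0.511 and 0.342 RPKM), and the R+LE libraries 43 and 45 (0.270 and 0.293 RPKM). Both +R libraries were above the other 4, and R+LE overlapped with -R. The ratio of reads per mapped read was 2.03 in +R against -R, from 1.504 to 2.762, and 0.660 in R+LE against +R, from 0.498 to 0.871. The 2 libraries of -R differed by a similar factor, and the added voom fit gave log2 fold changes of 1.09 (adjusted p = 0.0204) and -0.57 (adjusted p = 0.396), while the unfiltered fit on RPKM gave 0.40 (adjusted p = 0.10) for +R against -R.

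On the level scale, per length of transcript, Csf1r was first and Tnfrsf11a second in every group. In -R they were followed by Csf2ra, whose range overlapped that of Tnfrsf11a, then Tnfrsf1a, Tnfrsf1b, Csf2rb, Csf3r, Lgr4, Il1r1 and Calcr. In +R the order after Tnfrsf11a was Csf2ra, Tnfrsf1a, Csf2rb, Tnfrsf1b, Calcr, Lgr4, Il1r1 and Csf3r, and the neighbours Tnfrsf1b and Calcr, and Lgr4 and Il1r1, overlapped. In R+LE, Tnfrsf1a and Csf2ra overlapped in the positions after Tnfrsf11a and were followed by Csf2rb, Tnfrsf1b, Calcr, Csf3r, Lgr4 and Il1r1. Calcr thus moved from the last position without RANKL to the seventh of 10 with it, and Csf3r from the seventh to the last.

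**Figure D4:**
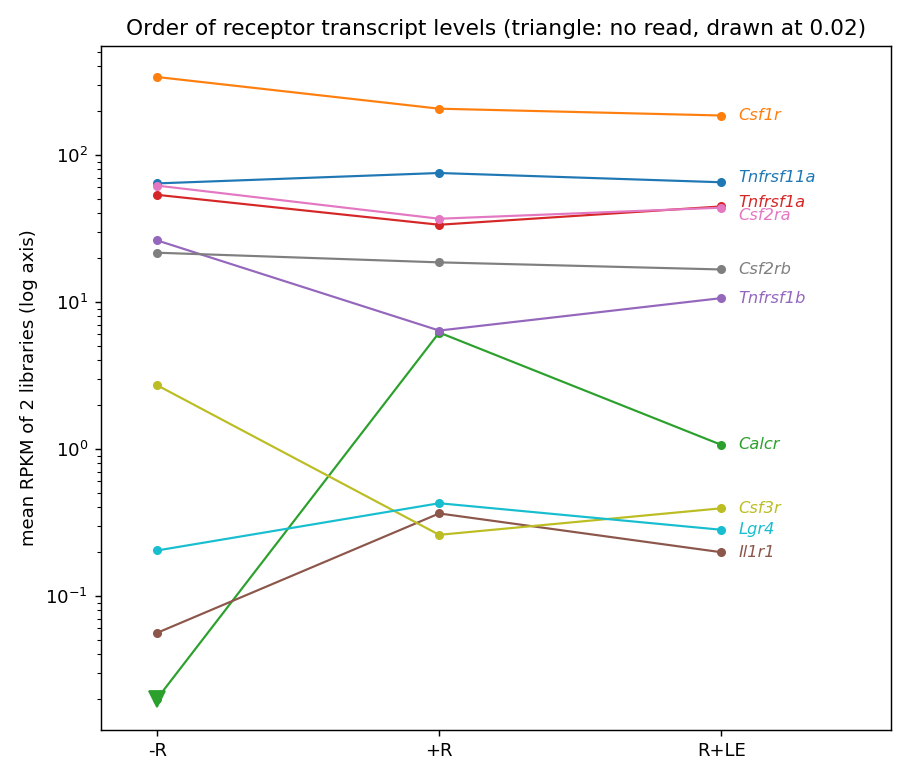
The plot shows the mean RPKM of the 2 libraries of each group on a log axis, with 1 line for each receptor gene. Csf1r is at the top in each group, and the lines of Calcr and Csf3r cross between -R and +R.

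Among the other tested genes, those with the most similar profile over the 6 libraries were taken by Euclidean distance between centred log2 values, as a description. For Tnfrsf11a they were Specc1 (distance 0.077), Gpkow (0.081) and Prkcsh (0.085), and for Csf1r they were Lmbrd1 (0.102), Mir5625 (0.112) and Snap23 (0.137). The row of Mir5625 lies wholly inside an exon of Slc35f6 on the same strand, so its reads cannot be told apart from those of that gene. For Calcr they were Ckmt1 (0.280), Tm4sf19 (0.362) and Akr1c18 (0.466). Ckmt1, a mitochondrial creatine kinase, was likewise at 0 RPKM in both -R libraries, with 6.32 and 5.13 RPKM under RANKL and 0.968 and 0.763 RPKM under RANKL and LE. With a pseudocount of 0.1 or 1, only 1 of the 3 neighbours of Calcr remained.

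Transcripts of most ligands of these receptors were at or near the limit of detection. Of 17 genes for ligands and secreted inhibitors, 4 passed the filter. Tnfsf11, which encodes RANKL, had at most 2 reads in any library. Tnfrsf11b, the decoy receptor osteoprotegerin, had 25 and 36 reads without RANKL, 10 and 2 with it, and 24 and 18 with LE as well. The calcitonin gene Calca had no read in any library and Calcb at most 4. None of these 4 genes passed the filter.

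Both ligands of the M-CSF receptor were detected. Csf1 had 1.76 and 1.48 RPKM with M-CSF alone, 0.727 and 0.602 RPKM with RANKL, and 1.19 and 1.04 RPKM with RANKL and LE, and fell with RANKL by 0.86 on the log2 scale, with an adjusted p of 0.00198 by limma. Il34, the other ligand, had 3 reads in -R as a whole against 115 in +R and 47 in R+LE, and was called higher with RANKL. Its mean over the 6 libraries was 0.515 RPKM, and it passed the filter only through the groups with RANKL, so this call is no support for a direction of the ligands. The ratio of reads per mapped read was 40.1 in +R against -R, with a counting interval from 13.4 to 197. Il34 fell with LE by 0.75 on the log2 scale, with an adjusted p of 0.0457. Tnf was called lower with RANKL, with a log2 fold change of -1.17 from 6.28 and 5.33 RPKM to 2.79 and 1.88 RPKM, and had 4.25 and 4.67 RPKM in R+LE. Il1rn, the secreted antagonist of the IL-1 receptor, went from 32.5 and 33.2 RPKM without RANKL to 22.3 and 14.4 RPKM with it and 9.72 and 8.28 RPKM with LE as well, and was called lower in R+LE against -R with a log2 fold change of -1.82. None of the 4 tested ligands was called in R+LE against +R by limma on RPKM, and voom called 1, lower. By limma 1.46% of all tested genes were called higher and 1.78% lower, so a count of 0 among 4 is near the background. By adjusted p alone 1 rose and 2 fell, beside 5.19% and 6.86% of all tested genes. At an unadjusted p below 0.05, 2 were higher and 2 lower.

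Of 17 partner subunits and close paralogs, 5 were tested and Csf2rb2 alone was called, lower in both comparisons with -R, where 8.92% and 6.36% of all tested genes were. None was called in R+LE against +R by limma on RPKM or by voom, with 1 lower at an unadjusted p below 0.05. The proteins RAMP1, RAMP2 and RAMP3 turn the calcitonin receptor into receptors for amylin. Ramp1 had at most 26 reads, and Ramp2 and Ramp3 at most 4 and 2, in any library. Of 26 genes for proteins that act directly below these receptors, 25 were tested. With RANKL, 3 were called higher and 0 lower, beside 6.58% and 8.92% of all tested genes. They were Traf2 with a log2 fold change of 1.33, Traf3 with 1.17, both adaptors of the TNF receptor family, and Socs3, a feedback inhibitor of cytokine receptors that binds the G-CSF receptor, with 1.66. None of the 25 was called in R+LE against +R by limma on RPKM or by voom, where 1.46% and 1.78% of all tested genes were called higher and lower by limma, so that a count of 0 among 25 is near the background, and 4 were lower and 0 higher at an unadjusted p below 0.05. By adjusted p alone 0 rose and 1 fell, beside 5.19% and 6.86% of all tested genes. It was Traf5, named after its values were seen, with a log2 fold change of -0.63 and an adjusted p of 0.0182 by limma. In R+LE against -R, 3 of the 25 were called higher and 1 lower, beside 3.92% and 6.36% of all tested genes. The lower gene was Gab2, an adaptor of the RANK and M-CSF receptors, with a log2 fold change of -1.27. Gab2 also fell in +R against -R, with a log2 fold change of -0.90 and an adjusted p of 0.000115 by limma. Between R+LE and +R its difference was -0.37, with an adjusted p of 0.120.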

How the data were processed

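Libraries were sequenced as 100 bp pairs, and groups and replicate numbers follow the labels. The authors aligned the reads to mm10 (TopHat in the methods, HISAT2 per the labels, which also list HOMER and DESeq2) and HOMER counted exons on both strands for 1 transcript a gene. The deposited unit is RPKM, although the column titles say FPKM. In the table, 26 symbols turned into dates were restored from transcript identifiers. The 10 genes and the gene lists were chosen with earlier results of these data known.

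For each gene whose mean reached 0.5 RPKM, log2(RPKM + 0.5) was fitted with limma 3.58.1 (R 4.3.3), 3 group means over 6 libraries and a variance trend, with Benjamini-Hochberg adjustment over 11595 genes. Called genes had an adjusted p below 0.05 and a 2-fold change, the thresholds of the study. An exact permutation test of 2 against 2 libraries cannot go below p = 0.333 and was not used. Whole reads were recovered from RPKM and transcript length, and gave depth, reads and limits (3 reads in each library). Of the values checked, 99.99% lay near a whole number, within the rounding error of the RPKM plus 0.02 reads. No 2 libraries were the same, since within groups the chi-square of their reads was 11.8 to 26.4 per gene. Scripts were tested on simulated data. Named genes were all 10 receptors, their ligands, Csf2rb2 and the Ramp genes, up to 4 called genes with the largest changes per list, and the 3 nearest profiles of Tnfrsf11a, Csf1r and Calcr. Alternatives covered pseudocount, filter, scaling, variance trend, samples, voom on recovered reads, a replicate block and leaving out each library.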

Additional observations from a re-analysis of the deposited data

How the results depend on the processing

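Most calls did not depend on the processing, but a call needs a 2-fold change. The adjusted p of some uncalled differences crossed 0.05 in alternatives that kept all 6 libraries. These were Tnfrsf11a in +R against -R, Tnfrsf1a and Tnfrsf1b in R+LE against +R, and Csf2rb in R+LE against -R. Over all alternatives, 428 values of single receptors kept their direction and their call, 3 turned sign and 1 became a call. The 3 were differences of Tnfrsf11a in R+LE against -R, which became -0.060 without replicate 1 of -R and -0.047 without replicate 1 of R+LE and reached at most 0.11 without 1 library, and of Csf1r in R+LE against +R, which became 0.015 without replicate 2 of R+LE and -0.34 without replicate 1. The new call was Csf1r in R+LE against -R, with -1.06 without replicate 1 of R+LE. Leaving out 1 library at a time gave 1798 to 1886 called genes in +R against -R, 367 to 442 in R+LE against +R and 1200 to 1272 in R+LE against -R, against 1797, 375 and 1192 with all libraries, and 3, 1 and 3 to 4 called receptors. The voom fit on genes with at least 10 reads, added after the data were seen, called 2894, 660 and 2032 genes, with more genes tested, and 5 receptors in +R against -R in place of 3, the added genes being Il1r1 and Lgr4, and 4 in place of 3 in R+LE against -R, the added gene being Il1r1.

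It is not stated whether equal replicate numbers pair the samples. Over genes, the deviations of same-numbered libraries correlated with -0.05 between -R and +R and 0.11 between -R and R+LE. Between +R and R+LE the correlation was 0.25. These values cannot decide whether the samples were paired, because it is not known how the replicates were prepared. With the replicate number as a block, 1801, 389 and 1200 genes were called, and 3, 1 and 3 receptors. Of the counts of called list members, 603 stayed within 1.5 times the reported count and 45 did not. Among those, the call of Tnfrsf21 in R+LE against +R was lost with a pseudocount of 1 and without replicate 1 of R+LE. With 2 libraries a group and 25 to 79 reads in a library, changes of Csf3r, Il1r1 and Lgr4 between +R and R+LE are poorly resolved at this depth.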

Other observations

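Of 24 further members of the TNF receptor family, 13 were tested. With RANKL 3 were called higher and 3 lower by limma, beside 6.58% and 8.92% of all tested genes, and 7 were not called. Tnfrsf9, which encodes the T cell costimulator 4-1BB, had 3 reads in -R as a whole against 316 in +R and 244 in R+LE, a ratio of reads per mapped read of 110 in +R with a counting interval from 37.4 to 537. It passed the filter through the groups with RANKL. Fas, the death receptor, had 0.900 and 1.44 RPKM in -R, 7.93 and 5.67 RPKM in +R, and 9.43 and 8.48 RPKM in R+LE, and its log2 fold change with RANKL was 2.13, adjusted p = 1.97e-07. Tnfrsf21, which encodes death receptor 6, fell from 30.8 and 29.5 RPKM in -R to 5.82 and 5.99 RPKM in +R, at a log2 fold change of -2.26 and an adjusted p of 3.07e-09. Tnfrsf13b, the B cell receptor TACI, fell from 6.71 and 9.48 RPKM to 2.71 and 2.19 RPKM, with a log2 fold change of -1.53. The other two called genes, named after their values were seen, were Relt at 1.27 and Tnfrsf26 at -1.24.

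In R+LE against +R, 1 of the 13 was called higher and 0 lower by limma, beside 1.46% and 1.78% of all tested genes. It was Tnfrsf21, with 13.4 and 11.8 RPKM in R+LE and a log2 fold change of 1.03, adjusted p = 0.000123. By adjusted p alone 3 of the 13 rose and 0 fell, beside 5.19% and 6.86% of all tested genes. Tnfrsf21 lay between -R and +R in the libraries with LE. The same held for Tnfrsf1a and Tnfrsf1b, and for other genes of this list, among them Tnfrsf13b, Tnfrsf26 and Relt. In R+LE against -R, Fas and Tnfrsf9 were called higher, with log2 fold changes of 2.52 and 2.17, and Tnfrsf21 and Tnfrsf13b lower, with -1.23 and -1.21, beside 3.92% and 6.36% of all tested genes. Calcrl, the receptor of the CGRP and adrenomedullin peptides and the closest paralog of Calcr, was named after its values were seen. It had 7.31 and 10.9 RPKM in -R, 16.8 and 13.005 RPKM in +R, and 18.5 and 16.0 RPKM in R+LE, at log2 fold changes of 0.69 with RANKL (adjusted p = 0.00566) and 0.21 in R+LE against +R (adjusted p = 0.569).

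Markers of the remaining cell types were low in all libraries. The 6 dendritic cell markers summed to at most 2.56 RPKM, the 9 lymphocyte markers to at most 2.24 RPKM, the 5 erythroid markers to at most 0.583 RPKM and the 5 mast cell and basophil markers to at most 0.082 RPKM, and none of them passed the filter. Of the stromal and osteoblast markers, 4 of 8 were tested. By limma on RPKM 0 were called in +R against -R, beside 6.58% higher and 8.92% lower of all tested genes. In R+LE against +R 0 were called, beside 1.46% and 1.78%, and in R+LE against -R 0, beside 3.92% and 6.36%. By adjusted p alone 1, 2 and 3 fell in these comparisons, beside 21.5%, 6.86% and 19.0% of all tested genes. In each 0 rose, beside 23.9%, 5.19% and 15.3%. At an unadjusted p below 0.05, 2 were lower in +R against -R and 3 in each of the comparisons of R+LE. Voom on the same genes called 0 in +R against -R, 1 lower in R+LE against +R and 2 lower in R+LE against -R.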
